A study of Mus musculus with 2 samples.

Results

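The brush-border peptidases described here are 9 genes, chosen by name for their enzymes on the surface of the intestinal lining: Anpep, Enpep, Xpnpep2, Dpp4, Ace, Mep1a, Mep1b, Tmprss15 and Ggt1. All 9 were matched by Ensembl identifier in both gene tables, among 21461 nuclear protein-coding genes. RNA longer than 200 nt came from the intestine of 2 newborn B6NCrl mice, pups of 1 pregnancy aged 0 days with sex not collected, and 1 library per pup was made from 10 ng of RNA with spike-in transcripts added. The labels give no genotype beyond the strain, no treatment and no gut segment, and the 2 pups (pup 1 and pup 2) form 1 group, so the values describe this tissue and the spread between littermates, with no contrast of conditions. No p-value is printed: by sign flips alone, 2 pups reach at best 0.5.

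Protein in milk is cut in the gut lumen by soluble proteases and then, at the microvillus membrane of enterocytes, by enzymes anchored with their active sites outward. Aminopeptidases take residues from the front end of a peptide, carboxypeptidases from its rear end, dipeptidyl peptidases release pairs of residues, and meprins cut inside the chain. Enteropeptidase digests little itself and instead converts trypsinogen from the pancreas to trypsin, which starts the activation of the other pancreatic enzymes. Several of these enzymes also occur on kidney tubule, vessel wall, fibroblast or myeloid cells.

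The summed gene counts were 44568098 in pup 1 and 34797495 in pup 2. Enterocyte markers were abundant, with all 8 listed genes at 10 TPM (the deposited abundance, normalised for transcript length and library size) or more in both pups and Vil1 of the microvillus core at 174 and 195 TPM. None of 6 kidney markers reached 1 TPM in either pup, with a summed level of 0.250 and 0.340 TPM. In whole tissue, fewer cells of a type and less RNA per cell cannot be told apart.

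The peptidases fell into an abundant set of 7 genes and a scarce pair. All 9 stood at 1 TPM or more in both pups, against 59.1% of protein-coding genes. At 10 TPM the count was 7 of 9, against 32.2%, and at 100 TPM it was 5 of 9, against 5.72%. The members were chosen with earlier results of these data known, so these shares describe them and test nothing. The median over the 9 genes was 105 TPM in pup 1 and 121 TPM in pup 2, where the median protein-coding gene stood at 2.88 and 3.07 TPM. Together they took 834 and 882 TPM, from 98613 and 81144 reads, or 0.221% and 0.233% of all gene counts. The 2 scarce members, Tmprss15 and Xpnpep2, lay near the middle of all protein-coding genes, at percentiles 53.9 and 51.3, while the other 7 lay between percentiles 88.2 (Dpp4) and 96.6 (Ace).

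In order of mean level (n = 2) the genes were Ace, Anpep, Mep1a, Mep1b, Enpep, Ggt1, Dpp4, Tmprss15 and Xpnpep2. Neighbours were taken to differ beyond the spread where both pups gave the same sign and the mean log2 ratio exceeded 2 SD. The cut-off is descriptive. By it Ace stood above Anpep by log2 0.14 ± 0.068, Anpep above Mep1a by 0.46 ± 0.067, Ggt1 above Dpp4 by 1.13 ± 0.24 and Dpp4 above Tmprss15 by 3.51 ± 0.081. Mep1a and Mep1b (0.00077 ± 0.029), Mep1b and Enpep (0.16 ± 0.16), Enpep and Ggt1 (0.044 ± 0.24), and Tmprss15 and Xpnpep2 (0.30 ± 0.28) did not differ beyond it. The wide gap in the series is therefore the 11.4-fold step from Dpp4 down to Tmprss15. With the most abundant transcript of each gene alone, an alternative chosen after seeing the data, Ggt1 stood at 62.4 in place of 105 TPM, Mep1a (96.0 TPM) came below Mep1b (121 TPM) and Enpep (106 TPM), and the scarce pair changed places, Xpnpep2 at 3.22 and Tmprss15 at 2.42 TPM.

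**Figure D1:**
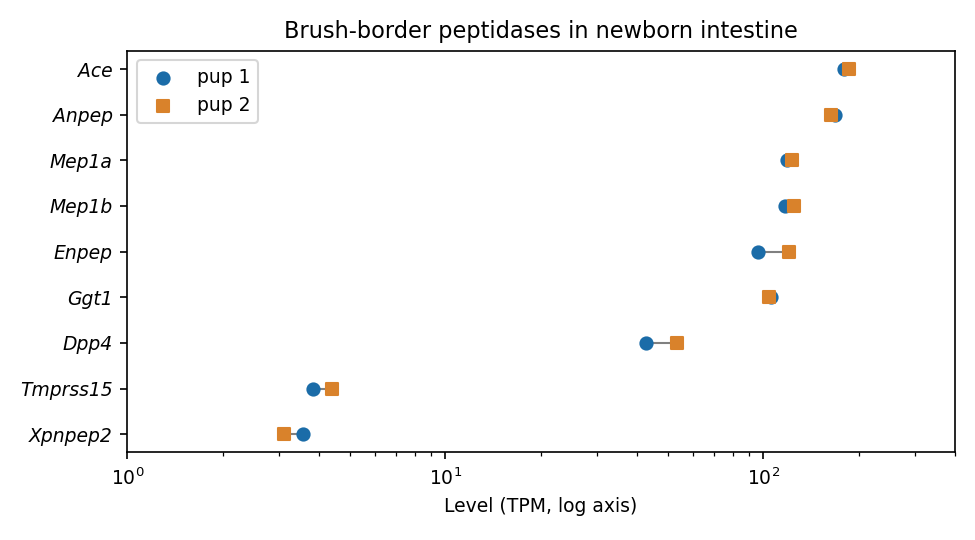
Level of each brush-border peptidase in TPM (log axis), with 1 point per pup and a grey line joining the 2 pups. Ace and Anpep lead in both pups, and Tmprss15 and Xpnpep2 sit under 10 TPM, apart from the other 7.

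Of the aminopeptidases, 2 were abundant and 1 was scarce. Anpep (aminopeptidase N or CD13, which removes neutral residues; ENSMUSG00000039062.11, chromosome 7, 79821803 to 79861059) had 168 TPM in pup 1 and 163 TPM in pup 2. Enpep (aminopeptidase A, which removes acidic residues and also trims angiotensin; ENSMUSG00000028024.10, chromosome 3, 129269175 to 129332720) had 96.5 and 121 TPM. Anpep was thus the higher in both pups, by log2 0.62 ± 0.26 (n = 2), although the gap was wider in pup 1 than in pup 2 (0.80 and 0.44). Xpnpep2 (membrane aminopeptidase P, which frees a residue that stands before proline; ENSMUSG00000037005.12, chromosome X, 48108725 to 48136981) had only 3.57 and 3.10 TPM, from 435 and 288 reads. Anpep exceeded it 48.3-fold (log2 5.60 ± 0.11) and Enpep 31.5-fold (log2 4.98 ± 0.37). Its cytosolic relative Xpnpep1, which does the same cut inside cells, stood at 219 and 235 TPM. Xpnpep2-201 (674 codons) took 97.8% and 94.9% of the TPM of Xpnpep2, but 77.3% and 72.6% by the deposited posterior mean. All positions count from 1 on GRCm38 (mm10).

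The transcripts of Anpep differed in where they start. The leading transcript, Anpep-201, took 95.3% and 95.5% of the gene's TPM. Anpep-202 starts 5858 bp further upstream, has 21 exons instead of 20 and the same coding length of 966 codons, and took 4.31% and 3.94% of the TPM, from 963 and 655 reads. The window that RefSeq gives for the gene (GRCm38.p6, chr7:79848161-79848460, minus strand) belongs to this upstream, little-used start, and is printed because it shows how CpG-rich a start with under 5% of the transcripts is. Its GC content was 72.3% with 28 CpG pairs, where the median of 32851 RefSeq windows of 300 bases was 52.7% and 7. Capitals mark the SP1 motif, which it holds 4 times as printed, in the direction of the gene, from bases -68, -48, -33 and 21 counted from the start base as 1.
Anpep upstream start: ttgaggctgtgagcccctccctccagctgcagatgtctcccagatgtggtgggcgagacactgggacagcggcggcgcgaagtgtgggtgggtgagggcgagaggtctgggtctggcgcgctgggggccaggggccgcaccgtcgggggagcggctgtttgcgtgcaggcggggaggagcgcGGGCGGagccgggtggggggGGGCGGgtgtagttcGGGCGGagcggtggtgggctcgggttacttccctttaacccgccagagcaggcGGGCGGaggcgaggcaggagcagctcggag

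Windows of 300 bases were searched on both strands for 5 short motifs, chosen after the data were seen, in the 12 windows found for 8 members. The SP1 letters GGGCGG were in 4 of the 12 and in 35.7% of all windows. The TATA box letters TATAAA were in 4 of the 12 and 13.6% of all. The HNF4 letters CAAAGT were in 4 of the 12 and 14.4% of all. The windows are not independent, since 4 are of Ggt1 and 2 of Ace, and both Ace windows hold the HNF4 letters. The CDX letters TTTATG were in 2 of the 12 and 11.9% of all. The GATA letters AGATAA were in 2 of the 12 and 11.2% of all. These are matches of letters and no measure of binding, and the leading start of Anpep has no window in the table.

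Dpp4 (dipeptidyl peptidase 4 or CD26, a serine enzyme that releases pairs of residues ending in proline or alanine; ENSMUSG00000035000.8, chromosome 2, 62330073 to 62412231) had 42.9 TPM in pup 1 and 53.4 TPM in pup 2. It was the lowest of the abundant members, 3.46-fold below Anpep (log2 1.79 ± 0.25), yet above Xpnpep2 by log2 3.81 ± 0.36, the other member that handles proline. Its close relative Fap, an enzyme of activated fibroblasts, had 2.26 and 2.79 TPM, 18.4-fold less (log2 4.20 ± 0.018). The coding transcript Dpp4-201 held 98.1% and 98.8% of the reads but 85.3% and 88.4% of the TPM. The rest of the TPM lay in 5 short transcripts with no coding frame, 288 to 1012 nt long, which had 130 and 84.4 reads in all.

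Ace, the highest of the 9, is the member that acts on the rear end of peptides. It is a peptidyl-dipeptidase, which removes pairs of residues there and is best known for making angiotensin II on vessel walls (ENSMUSG00000020681.10, chromosome 11, 105967945 to 105989964). It had 179 TPM in pup 1 and 186 TPM in pup 2, from 30226 and 24100 reads. Blood endothelium, another known site of Ace, was present: its 6 markers all passed 1 TPM, from 8.35 TPM (Kdr) to 86.8 TPM (Plvap) in pup 1, summing to 179 and 190 TPM. How Ace RNA divides between epithelium and vessels was not tested.

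Nearly all Ace RNA was assigned to the long somatic form. Ace-201, with 25 exons and 1312 codons, carries both catalytic domains and took 92.4% and 92.7% of the TPM. Ace-203, which starts 3378 bp further downstream and has 1015 codons, took 6.47% and 6.06%. Ace-202, the short form of male germ cells with 732 codons and its own start 7263 bp downstream, took 1.12% and 1.16%, from 167 and 138 reads. Of 5 germ cell markers, Prm2, Acrv1 and Pgk2 had no read in either pup (a count of 0 allows up to 3 reads, or 0.0673 and 0.0862 CPM, counts scaled to library size), Prm1 had 1 and 1 and Tnp1 had 2 and 0. The windows of the somatic start (GRCm38.p6, chr11:105967698-105967997, plus strand) and the germ cell start (chr11:105974939-105975238, plus strand) are printed because the first carried over 90% of the gene and the second about 1%. The first holds 29 CpG pairs at 69.7% GC and the second 2 at 59.0%. Capitals mark SP1 letters (from -140, -136, -75 and -18, the first 2 overlapping), TATA letters on the minus strand (-31) and HNF4 letters on the minus strand (-102) in the first, and HNF4 letters on the minus strand (-221) in the second.
Ace somatic start: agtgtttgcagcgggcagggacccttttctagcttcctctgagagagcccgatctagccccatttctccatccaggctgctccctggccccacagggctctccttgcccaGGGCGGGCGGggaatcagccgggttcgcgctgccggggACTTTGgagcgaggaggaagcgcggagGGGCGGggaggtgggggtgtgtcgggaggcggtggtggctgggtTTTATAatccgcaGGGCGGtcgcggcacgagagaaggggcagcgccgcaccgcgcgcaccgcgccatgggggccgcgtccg
Ace germ cell start: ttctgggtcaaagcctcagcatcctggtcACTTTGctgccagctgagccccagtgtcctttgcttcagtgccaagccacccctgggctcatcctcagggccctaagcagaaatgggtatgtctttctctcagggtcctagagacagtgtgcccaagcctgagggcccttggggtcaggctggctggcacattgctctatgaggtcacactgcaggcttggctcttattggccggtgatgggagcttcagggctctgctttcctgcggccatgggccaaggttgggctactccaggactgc

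Ggt1 (gamma-glutamyltransferase 1, which opens extracellular glutathione by removing its glutamyl group; ENSMUSG00000006345.6, chromosome 10, 75561604 to 75586200) had 105 and 104 TPM, in TPM the most even member between pups with a coefficient of variation of 1.11%. By the ratio of scaled counts given below, Ace (0.994), Mep1a (0.988) and Mep1b (1.02) lay closer to 1 than Ggt1 (0.974). Dpep1, the dipeptidase that splits the remaining cysteinylglycine, had 21.5 and 19.8 TPM, 5.05-fold less (log2 2.34 ± 0.071). The other family members Ggt5, Ggt6 and Ggt7 were between 2.06 and 6.87 TPM in either pup. Of 7 genes of the glutathione cycle, 6 were at 1 TPM or more in each pup. Synthesis genes led it, Gclm at 223 and 232 TPM and Gss at 178 and 170 TPM, followed by the reductase Gsr (mean 58.5 TPM) and the cyclotransferase Ggct (mean 13.7 TPM). Gclc, the catalytic partner of Gclm, had 15.8 and 10.3 TPM, and its count ratio of pup 2 over pup 1 was 0.623 (0.576 to 0.674).

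Ggt1 is known for several start sites, and the deposited transcripts spread over 4 RefSeq starts. Transcripts that begin within 100 bp of the second start held 85.6% and 87.5% of the reads and 58.0% and 61.5% of the TPM. Almost all of this was Ggt1-208, the full-length form with 568 codons. Those at the first start held 6.27% and 5.93% of the reads but 26.3% and 25.7% of the TPM. That share was a single transcript, Ggt1-211, only 429 nt long with 30 codons. The other two starts held 0.176% and 0.564% of the reads in pup 1, and transcripts at no RefSeq start 7.41% and 5.46% in pups 1 and 2, among them Ggt1-220 with a retained intron and Ggt1-219. Because a short transcript weighs more per read in TPM, the gene's level of 105 TPM rests in part on short transcripts, and the full-length form alone stood at 61.1 and 63.7 TPM. The windows of the first start (GRCm38.p6, chr10:75563882-75564181, plus strand) and the second (chr10:75568412-75568711, plus strand) are printed as the pair that carries the contrast between reads and TPM. Capitals mark GATA letters (-97) in the first and SP1 letters on the minus strand (-74) in the second.
Ggt1 first start: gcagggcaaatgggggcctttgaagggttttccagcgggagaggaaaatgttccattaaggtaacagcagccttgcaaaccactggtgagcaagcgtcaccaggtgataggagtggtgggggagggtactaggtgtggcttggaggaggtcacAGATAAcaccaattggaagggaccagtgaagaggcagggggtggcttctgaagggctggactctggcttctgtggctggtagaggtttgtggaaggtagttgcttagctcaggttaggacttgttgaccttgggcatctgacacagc
Ggt1 second start: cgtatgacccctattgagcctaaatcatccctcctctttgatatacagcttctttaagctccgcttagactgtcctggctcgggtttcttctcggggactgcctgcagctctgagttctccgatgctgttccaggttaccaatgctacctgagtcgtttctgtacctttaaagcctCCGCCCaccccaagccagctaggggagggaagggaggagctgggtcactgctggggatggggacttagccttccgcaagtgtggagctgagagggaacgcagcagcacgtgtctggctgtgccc

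**Figure D2:**
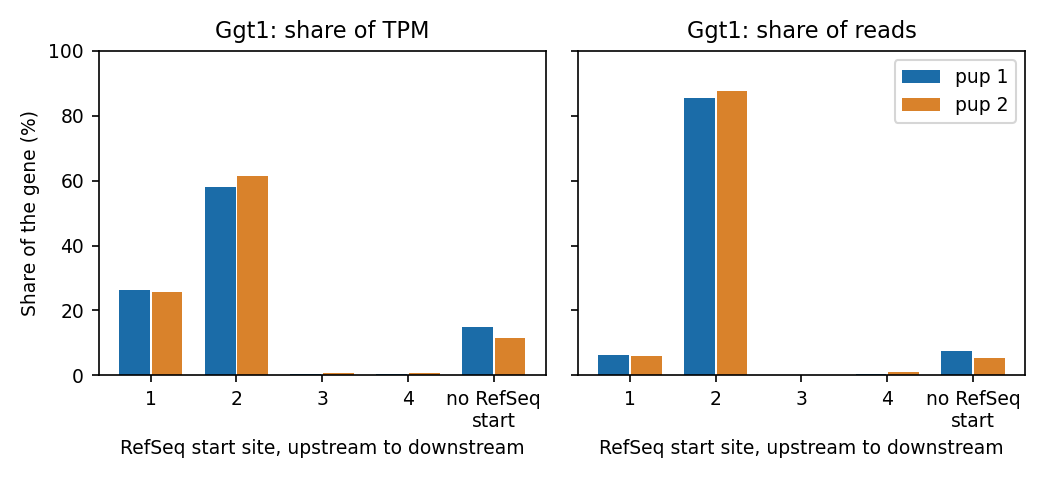
Share of Ggt1 in percent by RefSeq start site, as TPM on the left and as reads on the right, with 1 bar per pup. The second start leads on both scales, and the first start holds 26.3% and 25.7% of TPM but 6.27% and 5.93% of reads.

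The meprins were expressed at matching levels. These zinc endopeptidases cut inside peptide chains, and their alpha and beta chains pair into 1 enzyme that the beta chain holds in the membrane. Mep1a (alpha chain; ENSMUSG00000023914.12, chromosome 17, 43474324 to 43502812) had 118 TPM in pup 1 and 123 TPM in pup 2. Mep1b (beta chain; ENSMUSG00000024313.7, chromosome 18, 21061923 to 21100199) had 117 and 125 TPM. Mep1a was the higher in pup 1 and Mep1b in pup 2, each by under 0.03 on the log2 scale (0.021 and -0.019). In reads alone Mep1a exceeded Mep1b, 12036 against 9170 in pup 1 and 9537 against 7510 in pup 2, over a longer transcript. Mep1b has only 1 deposited transcript, Mep1b-201, so all its reads fall on it by construction. This transcript starts at 21072344, downstream of the start of the gene span given above. Mep1a divided between Mep1a-201 (760 codons, 76.2% and 82.8%) and Mep1a-202 (747 codons, 23.7% and 16.7%), whose starts lie 39 bp apart and which share 12 of 14 exons.

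Enteropeptidase was among the scarce members. Tmprss15 (ENSMUSG00000022857.9, chromosome 16, 78953008 to 79091097) had 3.82 TPM in pup 1 and 4.41 TPM in pup 2, from 533 and 470 reads. Anpep exceeded it 39.4-fold (log2 5.30 ± 0.17). Tmprss15-201 (1069 codons) took 59.6% and 58.0% of its TPM and Tmprss15-202 (1054 codons) 40.4% and 42.0%. Its substrates, the trypsinogens, were low to moderate: Try5 had 18.7 and 30.3 TPM, Try4 8.20 and 15.2, Prss2 8.43 and 14.3 and Prss1 10.9 and 11.0. These are related copies. The expected counts of Try5, Try4 and Prss1 were not whole, so the division of some of their reads is uncertain. Those of Prss2 were whole, at 217 in pup 1 and 283 in pup 2. The trypsin inhibitor Spink1 was far above enzyme and substrates, at 3843 and 4118 TPM. Of 16 genes, this inhibitor and the zymogens, 14 were at 1 TPM or more in each pup, with Ctrb1 (60.3 and 93.7 TPM) and Cela2a (29.1 and 52.9 TPM) next, and Ctrc without a read in either pup. Of 7 pancreas markers, 6 passed 1 TPM in both pups and Pnlip had 0 and 3 reads, and the list summed to 205 and 287 TPM. Which tissue the zymogen RNA came from was not tested.

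**Figure D3:**
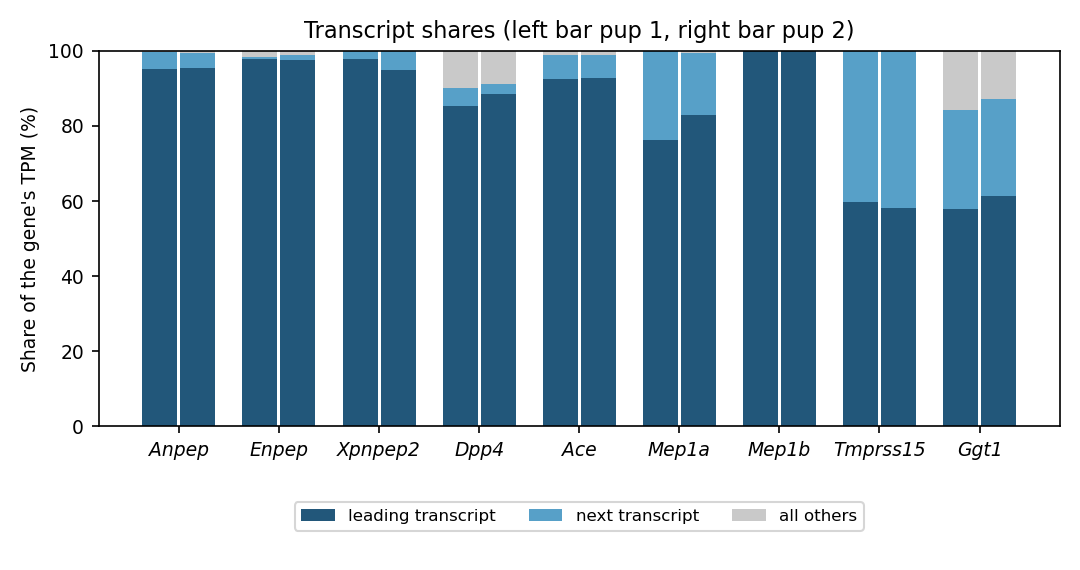
Share of each gene's TPM (percent) in its leading transcript, the next one and all others, with pup 1 as the left bar and pup 2 as the right bar of each gene. Mep1b has only 1 deposited transcript, so its full share is fixed by construction. Tmprss15 divides about 59.6% to 40.4% in pup 1, and Ggt1 and Dpp4 have the most in other transcripts.

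Set against each other by class as a mean per gene, Ace stood above the aminopeptidases, and aminopeptidases, meprins and Ace all stood above enteropeptidase. The order of aminopeptidases and meprins turned on whether the scarce Xpnpep2 was counted and on whether genes were averaged or summed. The mean of log2(TPM + 0.1) over the 3 aminopeptidases lay below that of the 2 meprins by log2 -1.61 ± 0.034 and below Ace by -2.21 ± 0.020. It lay 9.38-fold above enteropeptidase (log2 3.23 ± 0.12), and the meprins stood 28.7-fold above it (log2 4.84 ± 0.089). Without Xpnpep2, an alternative added after seeing the data, Anpep and Enpep lay above the meprins in both pups, by log2 0.12 and 0.18 (mean 0.15 ± 0.046), below Ace by -0.45 ± 0.060 and above enteropeptidase by 4.99 ± 0.043. With all 3 aminopeptidases but the mean TPM of each class in place of the mean log, they stood at log2 -0.38 relative to the meprins, -0.98 to Ace and 4.46 to enteropeptidase. As sums, the aminopeptidases came first in both pups. The 3 aminopeptidases came to 278 ± 13.6 TPM, the 2 meprins to 241 ± 8.97 TPM and Ace to 183 ± 5.11 TPM (n = 2). Of the 9 genes' summed TPM the aminopeptidases held 32.3 ± 0.285%, the meprins 28.1 ± 0.0808%, Ace 21.3 ± 0.257%, Ggt1 12.2 ± 0.624%, Dpp4 5.60 ± 0.647% and enteropeptidase 0.479 ± 0.0294%.

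The littermates differed little in these genes. Ratios of pup 2 over pup 1 were formed from counts scaled by TMM (which sets library sizes on the assumption that most genes do not differ) and given exact 95% intervals. The intervals hold counting error alone and treat reads as independent, which PCR copies are not. None of the 9 was over 2-fold apart (interval wholly above 2 or below 0.5), against 0.555% of 15849 protein-coding genes tested. Intervals lay wholly above 1 for 2 members, Dpp4 at 1.23-fold (1.19 to 1.27) and Enpep at 1.20-fold (1.17 to 1.22), against 13.5% of genes. They lay wholly below 1 for 2 others, Anpep at 0.928 (0.909 to 0.948) and Xpnpep2 at 0.826 (0.709 to 0.961), against 18.4% of genes. Neither count is read as a property of the peptidases. All 4 lay between the 5th and 95th percentiles of all genes tested (0.713 and 1.39), Dpp4 at percentile 90.7, Enpep at 89.3 and Xpnpep2 at 10.6. The range takes in every protein-coding gene with a summed count of 10 or more, so it does not give the spread at these members' depth. The ratio was 0.994 (0.978 to 1.01) for Ace, 0.988 (0.962 to 1.02) for Mep1a, 1.02 (0.991 to 1.05) for Mep1b, 0.974 (0.935 to 1.02) for Ggt1 and 1.10 (0.969 to 1.25) for Tmprss15. With total counts in place of TMM the intervals of Ace (1.02) and Mep1b (1.05) also lay above 1. The median over members was 0.994, where that of all genes tested was 0.992. With 2 libraries the pattern of a gene is this 1 ratio, and 3809 genes (24.0%) lay within 0.05 on the log2 scale of the members' median, so no gene is named for likeness.

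**Figure D4:**
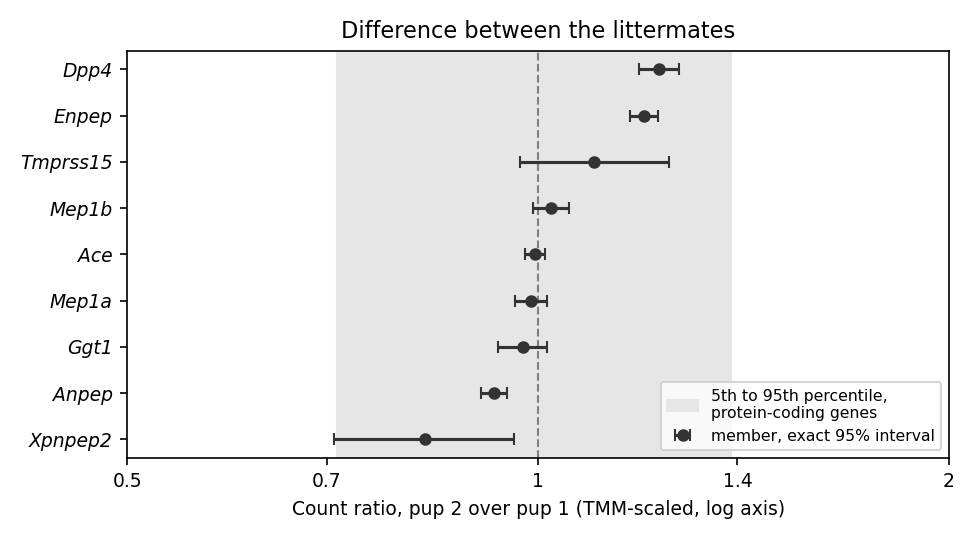
Ratio of TMM-scaled counts, pup 2 over pup 1 (log axis), with exact 95% intervals, and a grey band from the 5th to the 95th percentile of 15849 protein-coding genes. Dpp4 and Enpep lie above 1 and Anpep and Xpnpep2 below it, and every point lies inside the band.

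Genes of gut position also differed between the pups. Of the colon and posterior list, 4 of the 7 genes tested were over 2-fold lower in pup 2: Hoxa10 had 377 and 6 reads, Car1 235 and 0, Hoxd10 80.8 and 4 and Hoxa11 70.7 and 0. Over those 7 genes 5 intervals lay wholly below 1 and 1 wholly above it, that of Slc26a3 at 1.15. The ileum list went both ways, with a median ratio of 0.925 over 6 genes: Slc10a2 (0.225), Fabp6 (0.663) and Pyy (0.887) lay wholly below 1, and Slc51a (1.13) and Slc51b (1.12) wholly above it. The median over 6 upper small intestine genes was 1.01, with 2 intervals above 1 and 2 below. The pancreas list had a median ratio of 1.32. Among lists of cells that can carry Dpp4, Enpep or Anpep RNA, the median ratio was 1.06 for pericytes, 1.06 for fibroblasts and mesothelium, 0.902 for myeloid cells, 0.989 for blood endothelium and 0.902 for enterocytes. The summed TPM of those lists was 57.7 and 62.6, 603 and 637, 234 and 221, 179 and 190, and 53166 and 48377. A T lymphocyte list, with 3 of its 6 genes under 1 TPM in both pups, had a median ratio of 0.930. It summed to 21.2 and 22.9 TPM. The part of these differences in the ratios of Dpp4, Enpep, Anpep and Xpnpep2 was not tested.

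Among 20 other peptidases of the cell surface, 16 passed 1 TPM in both pups and 9 passed 10 TPM, with a median of 7.47 and 7.66 TPM against 105 and 121 TPM for the members. Naaladl1 (219 and 267 TPM), a relative of glutamate carboxypeptidase, stood above every member in both pups. Lower than Naaladl1 were the membrane serine proteases Tmprss4 (56.3 and 57.3 TPM) and St14 (mean 48.1 ± 2.65 TPM). Folh1, Dpep3, Lvrn and Trhde were under 1 TPM in both pups, Folh1 with 1 and 2 reads.

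The steps after the membrane were expressed as well. All 12 listed intracellular peptidases passed 10 TPM in both pups, with a median of 91.0 and 99.5 TPM. They were led by Cndp2, a dipeptidase (258 and 318 TPM), then Xpnpep1, Pepd, which splits dipeptides that end in proline (143 and 155 TPM), and Rnpep, aminopeptidase B (109 and 113 TPM). All 11 listed genes of peptide and amino acid transport passed 1 TPM and 8 passed 10 TPM, with a median of 30.2 and 33.0 TPM. Slc15a1, the carrier of di- and tripeptides, was the median gene itself, and Anpep stood 5.24-fold above it (log2 2.39 ± 0.12). The amino acid transport genes Slc7a9 (180 and 207 TPM), Slc7a7 (140.1 and 140.4 TPM), Slc3a2 (118 and 133 TPM) and Slc3a1 (96.0 and 103 TPM) led that list. Slc6a19 (88.7 and 95.3 TPM), a carrier of neutral amino acids, followed.

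Little of this depends on reads shared between genes. For 7 of the 9 members the expected count was whole in both pups within 0.005 reads. For the other two, Ace and Dpp4, the deposited standard deviation of the count was at most 1.27 reads. An antisense gene overlaps each of these on the opposite strand, Gm11651 over Ace with 4.07 and 9.09 reads and Gm13561 over Dpp4 with 15.0 and 15.5 reads. No source used here says whether counting used the strand.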

How the data were processed

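Gene and transcript tables were deposited for each of the 2 libraries. The values are expected counts (estimated read counts, not normalised) with their posterior means, TPM and FPKM that the authors normalised for length and depth, and the percent of a gene held by each transcript, per the file headers. A deposited readme names mm10 and GENCODE M4. The sources used here do not give the aligner or quantifier. FPKM was not used.

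Names, biotypes, exons and positions came from GENCODE M21 (GRCm38), which matched 42462 of 43346 Ensembl genes (98.0%) by identifier. Promoter windows, 250 bases before to 50 after a start, came from RefSeq (GRCm38.p6), and 12 windows matched 8 members. Members, lists and pairs were chosen with earlier results of these data known. Named were the members, genes of the pairs, and of each list the 4 highest by mean TPM and up to 4 under 1 TPM in both pups, and transcripts with 5% of a gene or an alternative start; Xpnpep1 beside Xpnpep2, and position, partner and relative genes, Gclc, Try4, Prss1, Prss2, the Ggt relatives, Mgam, Akp3 and single marker genes were picked after their values were seen, as were the motifs. Some genes that this rule names are not reported here.

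Levels are TPM per pup, and contrasts are log2(TPM + 0.1) differences within a pup, as mean ± SD (n = 2). Ratios between pups were taken on rounded expected counts with TMM effective library sizes (edgeR 4.0.16, R 4.3.3) and exact Clopper-Pearson 95% intervals (SciPy 1.17.1) at a summed count of 10 or more. The quasi-likelihood test of edgeR could not be used with 1 group. The ratio method was tested on simulated counts with counting error alone, which is what its intervals assume. That run cannot show how the intervals behave under other spread between pups. Alternatives covered the pseudocount, length normalisation, posterior means, DESeq2 1.42.0 size factors, total counts, count minimums, leaving out each pup, and, chosen after seeing the data, leading transcripts and the aminopeptidases without Xpnpep2. Tables and plots used Python 3.11.15, pandas 2.3.3 and matplotlib 3.10.9. The replicates are separate pups of 1 litter.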

Additional observations from a re-analysis of the deposited data

How the results depend on the processing

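Of the 4 class contrasts, the one of aminopeptidases against meprins reversed without Xpnpep2, to log2 0.15, because the class then holds only its abundant members. Without Xpnpep2 the aminopeptidases stood at -0.45 against Ace and 4.99 against enteropeptidase. The contrasts are of means per gene, and they kept their sign under the other alternatives run. Class sums, which put the aminopeptidases above meprins and Ace, were not among these. Against meprins, the aminopeptidases stood at log2 -1.51 with a pseudocount of 1 TPM, -1.53 with posterior mean TPM, -1.10 without length normalisation, -0.38 with mean TPM over members and -1.50 with leading transcripts alone. Against Ace the same settings gave -2.10, -2.13, -2.62, -0.98 and -2.15. Against enteropeptidase the aminopeptidases stood at 3.07 with a pseudocount of 1 TPM, 4.46 with mean TPM and 3.92 with leading transcripts. The meprins stood at 4.57 with a pseudocount of 1 TPM, 4.22 without length normalisation and 5.42 with leading transcripts. The spread of 2 values is small, so most shifts exceed 1 SD. Leaving out either pup moved no contrast, level or pair by more than 1 SD, which with 2 values holds by construction. The number of protein-coding genes over 2-fold apart was 88, and 46 at a summed count of 50 or more, where fewer genes are tested. No other scaling moved it by over 1.5 times. No paired analysis was possible because there is 1 group. Depth limits Xpnpep2 and Tmprss15, whose ratios rest on 288 to 533 reads a pup.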

Other observations

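Other hydrolases of the brush border spanned a wider range than the peptidases. All 8 listed genes passed 1 TPM in both pups. Alpi, the intestinal alkaline phosphatase, led at 1115 and 1023 TPM, followed by the ectonucleotidase Enpp3 (133 and 131 TPM), Lct (95.9 and 109 TPM) and Nt5e (16.7 and 16.0 TPM). The related phosphatase Akp3 had 2.85 and 2.20 TPM. Mgam, a glucosidase of starch digestion, had 11.4 and 14.6 TPM in pups 1 and 2.

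Transcription factors known to act on promoters of brush-border genes were all expressed, with 12 of 12 reaching 1 TPM and 11 of 12 reaching 10 TPM in each pup. Cdx1 (98.7 and 96.4 TPM), Klf5 (78.3 and 78.1 TPM) and Hnf4g (41.4 and 47.9 TPM) were among the 4 highest.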
